A study of Oryctolagus cuniculus with 6 samples.

Results

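Epithelial to mesenchymal transition (EMT) is the process by which epithelial cells loosen their junctions and take on the shape and matrix production of mesenchymal cells. It is driven by zinc finger repressors of the SNAI and ZEB families and by the basic helix-loop-helix factor TWIST1, which bind E-box sequences and repress genes such as CDH1, the epithelial cadherin. In the cornea, the epithelium uses parts of this programme when it migrates over a wound, and stromal keratocytes and fibroblasts express the mesenchymal markers at all times. The expression of 10 genes of this programme, namely SNAI1, SNAI2, ZEB1, ZEB2, TWIST1, PRRX1, VIM, CDH2, FN1 and TGFBI, was examined in cultured limbal cells. They were chosen by name as EMT factors and markers, all 10 were found among the 22190 genes of the count table, and all 10 passed the filter on low counts.

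RNA-seq was performed on primary limbal stem cells (LSCs) of rabbits, the cells that grew out of limbal explants in keratinocyte medium. The fresh group (n = 3 libraries) came from corneas that were not frozen, and the preconditioned group (n = 3 libraries) from corneas kept in liquid nitrogen for a week in cryomedium containing dimethyl sulfoxide, serum and IL-1β, an inflammatory cytokine. Freezing, the cryomedium and IL-1β therefore cannot be told apart here. The age and number of the rabbits and the animal behind each library are not given in the sources used here, so that p values measure the spread between these libraries only. Each library held 31952352 to 34327534 counts on genes.

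Levels in the text are CPM, counts brought to a common library size after scaling by TMM, a method that corrects for differences in composition. Levels of different genes were compared as FPKM, the deposited values per length of gene. Differences are log2 fold changes of the preconditioned over the fresh group from edgeR's quasi-likelihood test, with p values adjusted over all 15029 tested genes. A gene was called when its adjusted p was at most 0.05 and its absolute log2 fold change at least 1. None of the 10 genes was called with edgeR, against 2.29% of all tested genes (1.08% called as higher and 1.2% as lower after preconditioning). At an unadjusted p of at most 0.05 there were 2 of the 10, SNAI1 and CDH2, against 30.6% of all tested genes. DESeq2, the tool of the study's methods, called SNAI1 alone among the 10, against 7.78% of the genes to which it gave an adjusted p.

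Of the markers of the corneal and limbal epithelium, KRT5 had the highest level, and KRT15 (0.988 to 9.71 CPM) the lowest. KRT5, a keratin of basal epithelial cells, had 1155 ± 133 FPKM in fresh libraries and 999 ± 256 FPKM in preconditioned libraries (SD, n = 3 each), and CDH1 had 112 ± 19.4 and 94.7 ± 5.80 FPKM (SD, n = 3 each). Of 10 listed epithelial markers, KRT14 and KRT12 were not found under these symbols and were not analysed here. None of the other 8 was called by edgeR, beside 2.29% of all tested genes. Of the 8, 3 had positive and 5 negative log2 fold changes, and the median was −0.06. KRT3, a keratin of differentiated corneal epithelium, had the largest absolute value of the 8, at 961, 2655 and 409 CPM in the fresh and 801, 239 and 697 CPM in the preconditioned replicates, with overlap of the groups (log2 fold change −1.21, adjusted p = 0.30 in edgeR). The ranges of the groups did not overlap for TP63 and EPCAM, 2 of the 8, and over every gene tested that share was 36.7%. TP63, a transcription factor of basal epithelial cells, had 246, 226 and 239 CPM in the fresh and 183, 122 and 112 CPM in the preconditioned replicates (log2 fold change −0.77, adjusted p = 0.059 in edgeR). EPCAM, an epithelial adhesion molecule, had 77.5 to 91.8 CPM in the fresh and 102 to 126 CPM in the preconditioned group (log2 fold change 0.50, adjusted p = 0.060 in edgeR). The groups overlapped for PAX6, a transcription factor of the eye, at 174 to 218 CPM in the fresh and 203 to 459 CPM in the preconditioned group (log2 fold change 0.81, adjusted p = 0.11 in edgeR). Stromal markers were detected as well. The summed CPM of 9 keratocyte and fibroblast markers, of which DCN, COL1A2 and COL3A1 were among the highest and KERA (0.790 to 8.81 CPM) among the lowest, was 233, 310 and 612 in fresh replicates 1 to 3 and 527, 895 and 344 in preconditioned replicates 1 to 3. The ranges of the groups overlapped for this sum and for each of the 9 markers, while 36.7% of all tested genes had no overlap. None of the 9 markers was called by edgeR, beside 2.29% of all tested genes. The summed CPM of 6 vascular endothelial markers, led by PECAM1, was 4.26 to 6.51 in fresh and 1.64 to 15.1 in preconditioned libraries. In bulk RNA, a difference in the number of such cells and a difference in RNA per cell cannot be told apart.

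The order of the 10 genes by FPKM was nearly the same in both groups. VIM, the intermediate filament protein of mesenchymal cells, led with 202 ± 58.3 FPKM in fresh and 238 ± 114 FPKM in preconditioned libraries (SD, n = 3 each). Then came the secreted matrix proteins FN1 (91.9 ± 39.0 and 133 ± 56.1 FPKM) and TGFBI (58.5 ± 16.3 and 43.6 ± 5.91 FPKM). SNAI2 was the most abundant transcription factor of the set, with 18.7 ± 1.42 and 17.4 ± 0.367 FPKM. PRRX1, a homeobox factor of mesenchyme, and TWIST1 had means of 4.31 to 4.94 FPKM and could not be ordered, since their libraries overlapped in both groups. SNAI1 overlapped ZEB2 in the fresh group at 0.861 ± 0.536 FPKM, whereas at 3.61 ± 1.13 FPKM after preconditioning all of its libraries lay above those of ZEB2. ZEB2 (0.536 and 0.457 FPKM) and ZEB1 (0.359 and 0.383 FPKM) overlapped each other in both groups, and CDH2 was lowest with 0.238 and 0.0475 FPKM, overlapping ZEB1 in the fresh group only. Both PRRX1 and TWIST1 overlapped SNAI1 in the preconditioned group. In the fresh group, SNAI1 also overlapped ZEB1 and CDH2, and ZEB2 also overlapped CDH2. FN1 overlapped TGFBI in the fresh group only and VIM in the preconditioned group only.

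**Figure D1:**
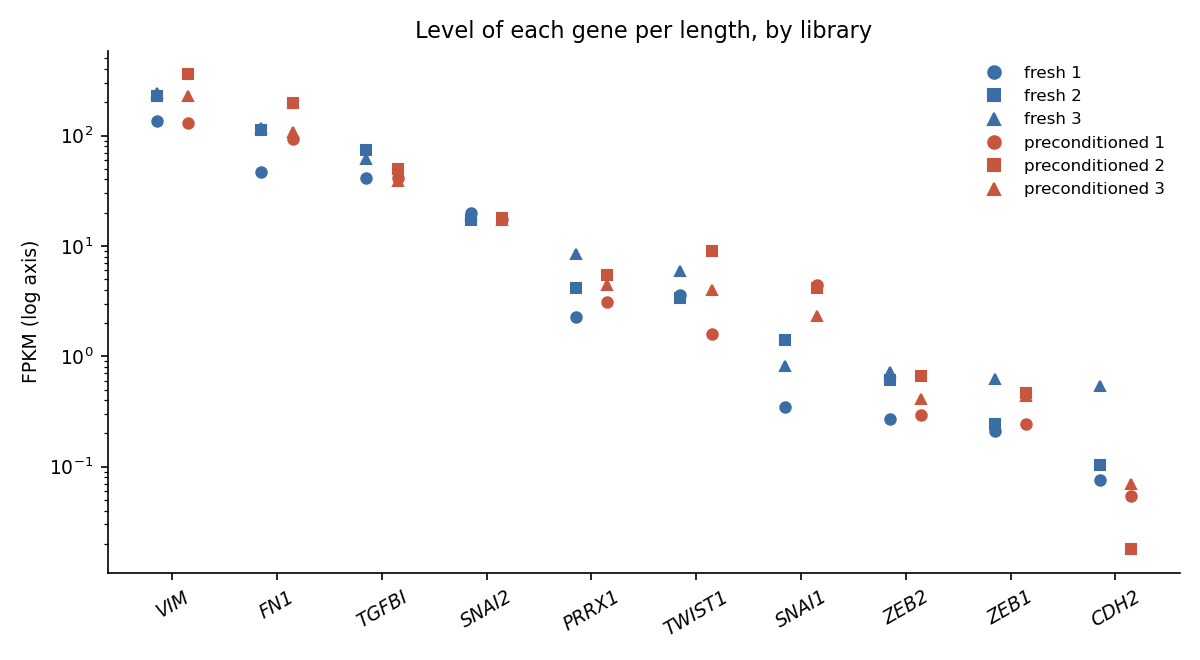
Level of each gene in FPKM (log axis) in the 6 libraries, with 1 point per library, blue for fresh and red for preconditioned, and a marker shape per replicate number. VIM, FN1 and TGFBI lie between 39.1 and 358 FPKM, ZEB1, ZEB2 and CDH2 at 0.726 FPKM or below, and the points of SNAI2 nearly coincide.

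SNAI1 was the gene of the set for which the groups were separated. SNAI1 is a repressor of CDH1 that acts early in EMT. It was expressed at 0.493, 1.997 and 1.15 CPM in fresh replicates 1 to 3 (17, 71 and 42 counts) and at 6.82, 6.75 and 3.66 CPM in preconditioned replicates 1 to 3 (224, 211 and 111 counts). All preconditioned libraries lay above all fresh libraries, with means of 1.21 ± 0.754 and 5.74 ± 1.81 CPM (SD, n = 3 each), a 4.73-fold difference. Separation of this kind was seen for 1 of the 10 genes and for 36.7% of all tested genes. The log2 fold change was 2.24 (standard error 0.53, 95% interval 0.99 to 3.49), and its adjusted p of 0.054 in edgeR missed the threshold. The same value was called by DESeq2 (log2 fold change 2.24, adjusted p = 0.000378), and over all alternatives that used the 6 libraries the adjusted p ranged from 0.000378 to 0.104. In fits on 5 of the libraries, its log2 fold change stayed between 1.86 and 2.80 and the adjusted p between 0.0477, reached without preconditioned replicate 1, and 0.174.

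SNAI2, the relative of SNAI1 that is expressed in basal epithelial cells and in migrating epithelium, hardly differed among the libraries. It had 38.5, 33.1 and 37.1 CPM in the fresh replicates and 37.2, 39.9 and 36.8 CPM in the preconditioned replicates. The groups overlapped, and the log2 fold change was 0.07 (standard error 0.11, adjusted p = 0.72 in edgeR). Its 95% interval of −0.20 to 0.34 was the narrowest of the 10 genes and did not reach a 2-fold change in either direction. Scaled by library size only, the value was −0.10, a shift like that of the median of all genes, which moved from 0.01 to −0.16. The coefficient of variation between libraries was 7.71% in fresh and 4.44% in preconditioned samples, below the medians of all tested genes, which were 13.8% and 19.9%.

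The balance of both SNAI genes was compared within each library, which does not depend on how libraries are scaled. In FPKM, SNAI2 exceeded SNAI1 56.8-fold, 12.1-fold and 23.5-fold in the fresh replicates and 3.98-fold, 4.30-fold and 7.32-fold in the preconditioned replicates. The groups did not overlap, and SNAI2 remained the more abundant transcript in all 6 libraries. The mean log2 ratio of counts was 5.10 ± 1.11 in fresh and 2.78 ± 0.477 in preconditioned libraries (SD, n = 3 each), a difference of −2.32. The exact, 2-sided permutation p was 0.1, the smallest that 3 libraries against 3 allow, and 0.4 when adjusted over the 4 ratios examined.

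**Figure D2:**
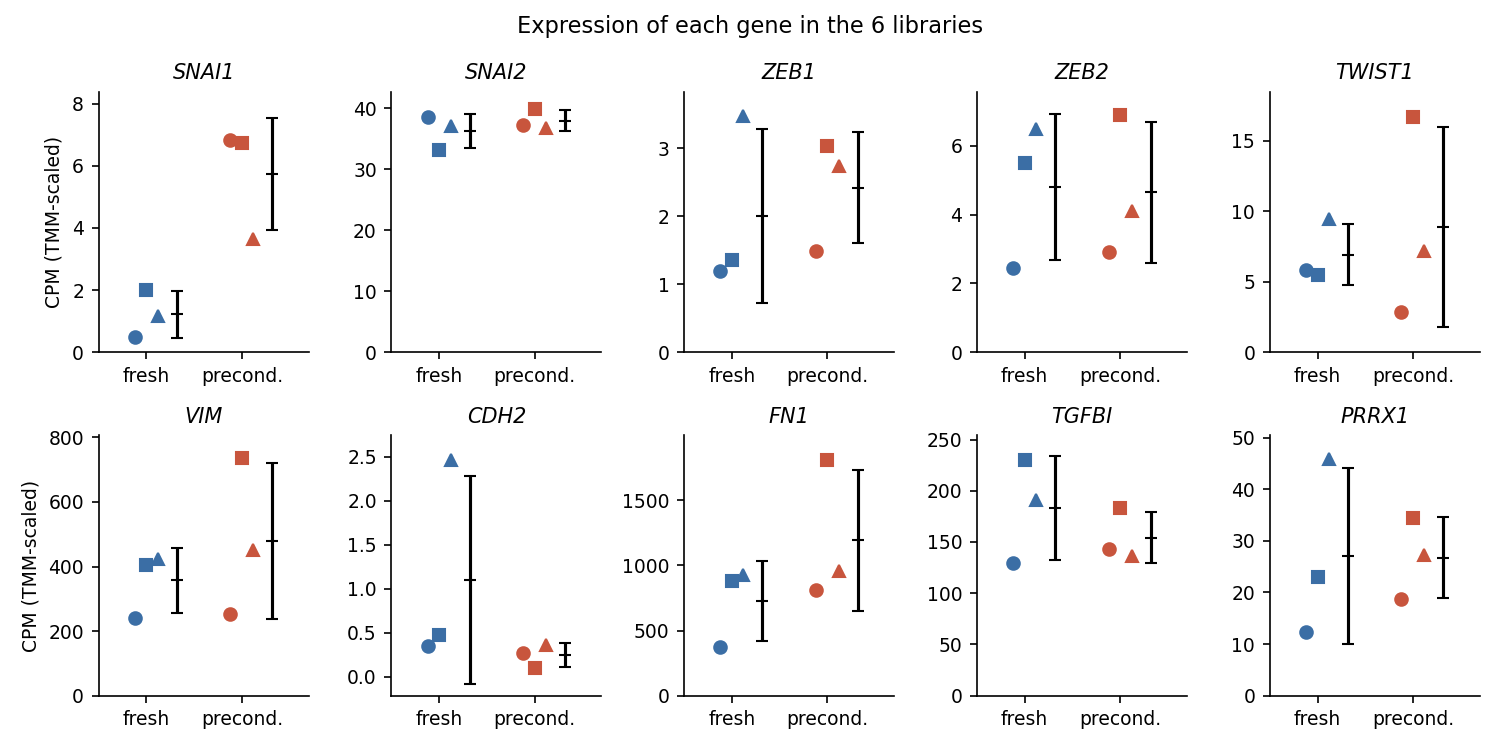
CPM of each gene in the 3 fresh (blue) and 3 preconditioned (red) libraries, 1 panel per gene with its own linear axis, where circles, squares and triangles are replicates 1, 2 and 3 and the black bars give the mean ± SD. For SNAI1 the preconditioned libraries (3.66 to 6.82 CPM) lie above the fresh libraries (0.493 to 1.997 CPM), and in the other 9 panels the groups overlap.

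The ZEB factors, which repress CDH1 and are held down in epithelial cells by microRNAs of the miR-200 family, were close to the lower end of expression in both groups. ZEB1 had 1.19, 1.35 and 3.47 CPM in the fresh replicates (41, 48 and 127 counts) and 1.49, 3.04 and 2.73 CPM in the preconditioned replicates. Fresh replicate 3 was the highest of all 6 libraries, and the log2 fold change of 0.27 (95% interval −0.94 to 1.48, adjusted p = 0.75 in edgeR) became 0.93 without that library and 0.00 without fresh replicate 1. ZEB2 had 2.43, 5.49 and 6.48 CPM in the fresh replicates and 2.92, 6.91 and 4.12 CPM in the preconditioned replicates. Each group had its lowest library at replicate 1, and the log2 fold change was −0.05 (95% interval −1.12 to 1.03, adjusted p = 0.96). In FPKM, ZEB2 was 1.16-fold to 2.53-fold of ZEB1 in the fresh libraries and 0.940-fold to 1.42-fold in the preconditioned libraries, and the difference of the log2 ratios, −0.40, was within the SD of 0.609 among fresh libraries (exact permutation p = 0.5). ZEB2 is also expressed in leukocytes and melanocytes. The summed CPM of 7 melanocyte markers was 4.75 to 5.96 in the fresh and 2.77 to 6.39 in the preconditioned group, MITF made up most of it, and MLANA, PMEL and TYR had at most 3 counts in every library. TYRP1, a melanosomal protein, had 0.164 to 0.290 CPM in the fresh and 0.122, 1.60 and 2.60 CPM in the preconditioned replicates (log2 fold change 2.59), and it was called by DESeq2 (adjusted p = 0.032) and not by edgeR (adjusted p = 0.12). MITF, the other melanocyte marker tested, had 4.22 to 5.44 CPM in the fresh and 2.19 to 3.69 CPM in the preconditioned group, without overlap (log2 fold change −0.61, adjusted p = 0.20 in edgeR). The summed CPM of 8 immune markers was 154 to 184 in fresh and 188 to 381 in preconditioned libraries, and the groups did not overlap. Most of it came from CD68 and LAPTM5, while PTPRC, the common leukocyte antigen, stayed at or below 1.503 CPM. CD68, a lysosomal protein of macrophages, had 97.6, 129 and 93.4 CPM in the fresh and 121, 300 and 288 CPM in the preconditioned replicates (log2 fold change 1.14), so the groups overlapped, and it was called by DESeq2 (adjusted p = 0.0095) and not by edgeR (adjusted p = 0.085). LAPTM5, a lysosomal membrane protein of blood cells, had 51.0, 50.1 and 84.6 CPM in the fresh and 63.6, 63.0 and 25.9 CPM in the preconditioned replicates (log2 fold change −0.28, adjusted p = 0.64 in edgeR). Of the 7 immune markers tested, 6 had positive log2 fold changes, with a median of 1.02, and CD74 alone was separated between the groups, at 0.113 to 0.656 and 0.659 to 1.44 CPM (log2 fold change 1.30, adjusted p = 0.22 in edgeR). The part of melanocytes and immune cells in the level of ZEB2 was not tested.

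TWIST1, which activates CDH2 and other mesenchymal genes, had 5.83, 5.49 and 9.41 CPM in the fresh replicates and 2.83, 16.7 and 7.18 CPM in the preconditioned replicates. Both the lowest and the highest library were preconditioned, so that the group's coefficient of variation was 79.6%, larger than that of 94.8% of all tested genes. The log2 fold change of 0.36 (95% interval −1.05 to 1.78, adjusted p = 0.71 in edgeR) turned to −0.46 without preconditioned replicate 2. PRRX1 had 12.4, 22.9 and 45.8 CPM in the fresh replicates and 18.7, 34.4 and 27.2 CPM in the preconditioned replicates. Here the fresh group held both extremes, and the log2 fold change was −0.02 (95% interval −1.12 to 1.09, adjusted p = 0.99), or 0.60 without fresh replicate 3.

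Among the markers, FN1 had the largest positive difference. FN1 encodes fibronectin, which is laid down under migrating corneal epithelium and by stromal cells. Its level was 373, 882 and 923 CPM in the fresh replicates and 814, 1812 and 955 CPM in the preconditioned replicates. Fresh replicate 1 lay below all other libraries and preconditioned replicate 2 above them, while the remaining 4 lay between 814 and 955 CPM. FN1 thus had a log2 fold change of 0.72 (95% interval −0.29 to 1.73, adjusted p = 0.29 in edgeR), and the value was 0.29 without preconditioned replicate 2 and 0.40 without fresh replicate 1.

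VIM showed a similar distribution over the libraries. It had 240, 406 and 425 CPM in the fresh replicates and 252, 735 and 450 CPM in the preconditioned replicates, so that replicate 1 was lowest in both groups. Between the groups, VIM differed by 0.43 on the log2 scale (95% interval −0.52 to 1.37, adjusted p = 0.499 in edgeR), and −0.02 without preconditioned replicate 2. VIM exceeded CDH1 in FPKM in every library, 1.40-fold, 1.71-fold and 2.26-fold in the fresh replicates and 1.36-fold, 3.57-fold and 2.57-fold in the preconditioned replicates. The log2 ratios differed by 0.40 between the groups, less than the SD of 0.710 among the preconditioned libraries exact permutation p = 0.5).

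TGFBI, a matrix protein induced by TGF-β and made by the corneal epithelium and stroma, was lower on average in the preconditioned group, within the spread of the libraries. It had 129, 230 and 191 CPM in the fresh replicates and 143, 183 and 137 CPM in the preconditioned replicates. The preconditioned libraries all lay within the fresh range. For TGFBI, this gave a log2 fold change of −0.25 (95% interval −0.77 to 0.28, adjusted p = 0.48 in edgeR), and the interval did not reach a 2-fold change.

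CDH2, the neural cadherin that replaces CDH1 when cadherins are switched in EMT, was barely detected. It had 12, 17 and 90 counts in the fresh replicates (0.348, 0.478 and 2.46 CPM) and 9, 3 and 11 counts in the preconditioned replicates (0.274, 0.0959 and 0.362 CPM). The groups overlapped, since preconditioned replicate 3 lay above fresh replicate 1. Of the 119 counts in the fresh group, 75.6% came from fresh replicate 3. The log2 fold change was −2.15 (standard error 0.90, 95% interval −4.26 to −0.05, adjusted p = 0.16 in edgeR), and −0.76 (adjusted p = 0.53) without fresh replicate 3. In FPKM, CDH2 amounted to 0.0179% to 0.503% of CDH1 over the 6 libraries, and CDH1 itself had 427 to 591 CPM in the fresh and 436 to 513 CPM in the preconditioned libraries (log2 fold change −0.07, 95% interval −0.43 to 0.28, adjusted p = 0.77). The log2 ratio of CDH2 to CDH1 differed by −1.66 between the groups exact permutation p = 0.3, adjusted over the 4 ratios p = 0.5).

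**Figure D3:**
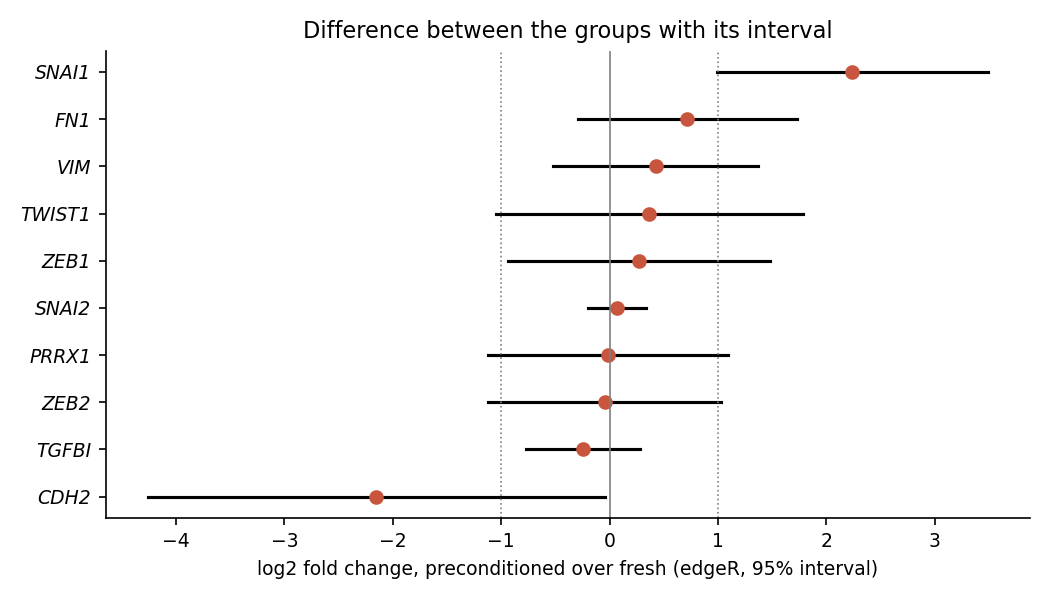
Log2 fold change of the preconditioned over the fresh group for each gene (points) with its 95% interval in edgeR (lines), where dotted lines mark a 2-fold change. The intervals of SNAI1 (0.99 to 3.49) and CDH2 (−4.26 to −0.05) do not include 0, and those of SNAI2 and TGFBI lie within the dotted lines.

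**Figure D4:**
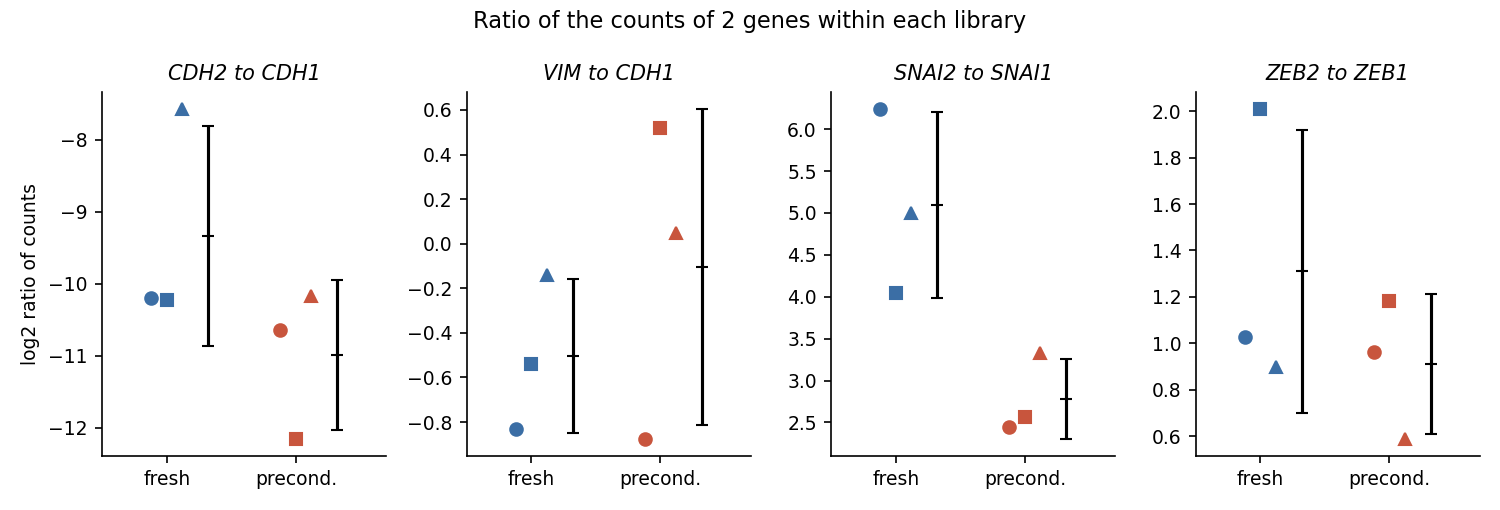
Log2 ratio of the counts of the named genes within each library, with circles, squares and triangles for replicates 1, 2 and 3, blue for fresh, red for preconditioned, and black bars for the mean ± SD. The groups are separated for SNAI2 to SNAI1 (means 5.10 and 2.78) and overlap in the other 3 panels.

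Most of the 10 genes varied between libraries of the same group more than genes in general. The coefficient of variation was above the median of all tested genes for 9 of the 10 among fresh libraries and for 8 among preconditioned ones, and for CDH2 in the fresh group it reached 108%. Fresh replicate 1 held the lowest value of all 6 libraries for 7 of the 10 genes, and preconditioned replicate 2 the highest for 5. The summed CPM of the stromal markers was also lowest in fresh replicate 1 (233) and highest in preconditioned replicate 2 (895). The same held for the summed CPM of the immune markers (154 and 381). The endothelial sum was lowest in preconditioned replicate 1 (1.64) and highest in preconditioned replicate 2 (15.1). Fresh replicate 3, which was highest for ZEB1, CDH2 and PRRX1, had the largest stromal sum of the fresh group (612). For SNAI1, fresh replicate 1 was again the lowest library. Preconditioned replicates 1 and 2, with stromal sums of 527 and 895, were nearly equal and above the rest. Fresh replicate 3 (stromal sum 612) had 1.15 CPM of SNAI1, and preconditioned replicate 3 (344) had 3.66 CPM. In preconditioned replicate 1, most of the stromal sum came from COL1A2 (270 CPM) and COL3A1 (161 CPM). There, DCN (43.3 CPM), LUM (32.6 CPM), KERA, PDGFRA and THY1 were below fresh replicate 1, which had 85.8 CPM of DCN and 40.4 CPM of LUM. PDGFRB and OGN, like both collagens, were above it. The part of stromal, immune or endothelial cells in these levels was not tested.

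The remaining genes of the programme were examined by lists of other EMT factors, mesenchymal markers, epithelial genes, TGF-β genes and genes of partial EMT. Of 9 other EMT transcription factors tested, none was called by edgeR (2.29% of all tested genes) or DESeq2 (7.78% of the genes given an adjusted p). None had an unadjusted p of at most 0.05 in edgeR, against 30.6% of all tested genes. Their log2 fold changes ran from −0.63 for SNAI3 to 0.97 for PRRX2, with 4 positive and 5 negative values. The median was −0.30 against 0.01 for all tested genes. The groups overlapped for each of the 9, while 36.7% of all tested genes had no overlap. KLF8, a zinc finger factor, had 9.07 ± 2.91 and 6.14 ± 0.776 CPM (SD, n = 3 each, log2 fold change −0.56, adjusted p = 0.21 in edgeR). SNAI3 (0.364 and 0.234 CPM) was expressed near the limit of detection, PRRX2, the relative of PRRX1, had 2.28 and 4.46 CPM, and GSC had at most 3 counts in every library.

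Among 19 other mesenchymal markers, COL1A1 alone was called by edgeR, beside 2.29% of all tested genes, and it rose. COL1A1, the α1 chain of type I collagen, had 56.8, 109 and 108 CPM in the fresh replicates and 537, 693 and 505 CPM in the preconditioned replicates (log2 fold change 2.66, standard error 0.28, adjusted p = 0.015 in edgeR). ITGB1, the integrin β1 chain, was separated between the groups at 1870 ± 311 and 3510 ± 686 CPM (SD, n = 3 each), and its log2 fold change of 0.91 (adjusted p = 0.048 in edgeR) was under the cutoff of 1. COL1A2, the partner chain of COL1A1, did not pass. It had 50.2, 76.0 and 178 CPM in the fresh and 270, 235 and 150 CPM in the preconditioned replicates (log2 fold change 1.11, 95% interval −0.03 to 2.24, adjusted p = 0.17). FAP, the fibroblast activation protein, was separated between the groups at 0.788 to 2.87 and 4.02 to 7.55 CPM (log2 fold change 1.81, adjusted p = 0.076 in edgeR). It was the other gene of the list called by DESeq2, which called 7.78% of the genes given an adjusted p. COL1A1 was not called without fresh replicate 2 (adjusted p = 0.069) or without preconditioned replicate 2 (adjusted p = 0.067). The median log2 fold change of the list was 0.41, 15 of the 19 genes had a positive value, and 3 were separated between the groups, a share of 15.8% beside 36.7% of all tested genes.

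Of 21 epithelial genes tested, CLDN4 alone was called by edgeR, beside 2.29% of all tested genes, and it rose. CLDN4, a claudin of tight junctions, had 208, 285 and 248 CPM in the fresh and 493, 805 and 428 CPM in the preconditioned replicates (log2 fold change 1.22, standard error 0.25, adjusted p = 0.046 in edgeR). PRSS8, a membrane serine protease of epithelia, had 14.3 to 20.9 CPM in the fresh group and 23.4, 93.7 and 84.1 CPM in the preconditioned replicates (log2 fold change 1.92, adjusted p = 0.064), and it was called by DESeq2. GRHL2, a transcription factor that maintains epithelial junction genes, had 81.7, 82.7 and 63.0 CPM in the fresh and 59.1, 37.8 and 35.7 CPM in the preconditioned replicates (log2 fold change −0.78, adjusted p = 0.073). ESRP2, an epithelial splicing regulator, had 90.9 to 95.1 CPM in the fresh and 72.2, 46.2 and 52.9 CPM in the preconditioned replicates (log2 fold change −0.70, adjusted p = 0.056). CLDN4 was called in 1 of the 6 fits on 5 libraries, the one without preconditioned replicate 1 (adjusted p from 0.0255 to 0.145), and not with the replicate block. The values of the list were spread to both sides, with 10 positive and 11 negative log2 fold changes and a median of −0.07. Separation of the groups was seen for 9 of the 21 (42.9%, beside 36.7% over every gene tested), with 5 higher and 4 lower in the preconditioned group.

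TGF-β is the best known inducer of SNAI1. Of 12 genes of its ligands, receptors, SMADs and targets, SKIL was called, and it rose, beside 2.29% called over every gene tested. SKIL, a target of the pathway that feeds back on SMADs, had 34.1, 38.3 and 55.6 CPM in the fresh and 87.9, 100 and 73.8 CPM in the preconditioned replicates (log2 fold change 1.03, standard error 0.21, adjusted p = 0.044 in edgeR). The targets SMAD7 (log2 fold change 0.51, adjusted p = 0.45) and CCN2 (log2 fold change 0.65, adjusted p = 0.31) were not called, and their libraries overlapped. The list held 8 positive and 4 negative log2 fold changes with a median of 0.18, and the lowest was that of the receptor TGFBR2 (−0.36, adjusted p = 0.26 in edgeR). Besides SKIL, SMAD4, the common partner of the receptor-activated SMADs, was separated, at 81.4 to 93.4 CPM in the fresh and 72.0 to 81.2 CPM in the preconditioned group (log2 fold change −0.20, adjusted p = 0.23 in edgeR), which makes 2 of 12 (16.7%, beside 36.7% over every gene tested). SKIL was called in 1 of the 6 fits on 5 libraries, the one without preconditioned replicate 1 (adjusted p from 0.0317 to 0.157 over the 6 fits), and it was not called with library size only, with the replicate block or with limma on FPKM.

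Of 9 genes that mark partial EMT in squamous epithelia, PLAU alone was called by edgeR, beside 2.29% of all tested genes, and it rose. PLAU, the urokinase plasminogen activator, had 2362, 2260 and 2093 CPM in the fresh and 4108, 6450 and 4786 CPM in the preconditioned replicates (log2 fold change 1.19, standard error 0.18, adjusted p = 0.031 in edgeR). LAMB3, a chain of laminin-332, the laminin of the epithelial basement membrane, had 852 ± 84.2 and 1695 ± 271 CPM (SD, n = 3 each), and its log2 fold change of 0.99 (adjusted p = 0.032) fell just short of the cutoff of 1. P4HA2, a collagen prolyl hydroxylase, had 112 ± 6.02 and 187 ± 45.2 CPM (log2 fold change 0.74, adjusted p = 0.059). The median log2 fold change was 0.58, 8 of the 9 genes had a positive value, and 5 (55.6%) were separated between the groups, all of them higher after preconditioning, beside 36.7% of all tested genes in either direction. PLAU was called in 1 of the 6 fits on 5 libraries, again the one without preconditioned replicate 1 (adjusted p from 0.00493 to 0.129), and it was not called with the replicate block or with limma on FPKM.

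**Figure D5:**
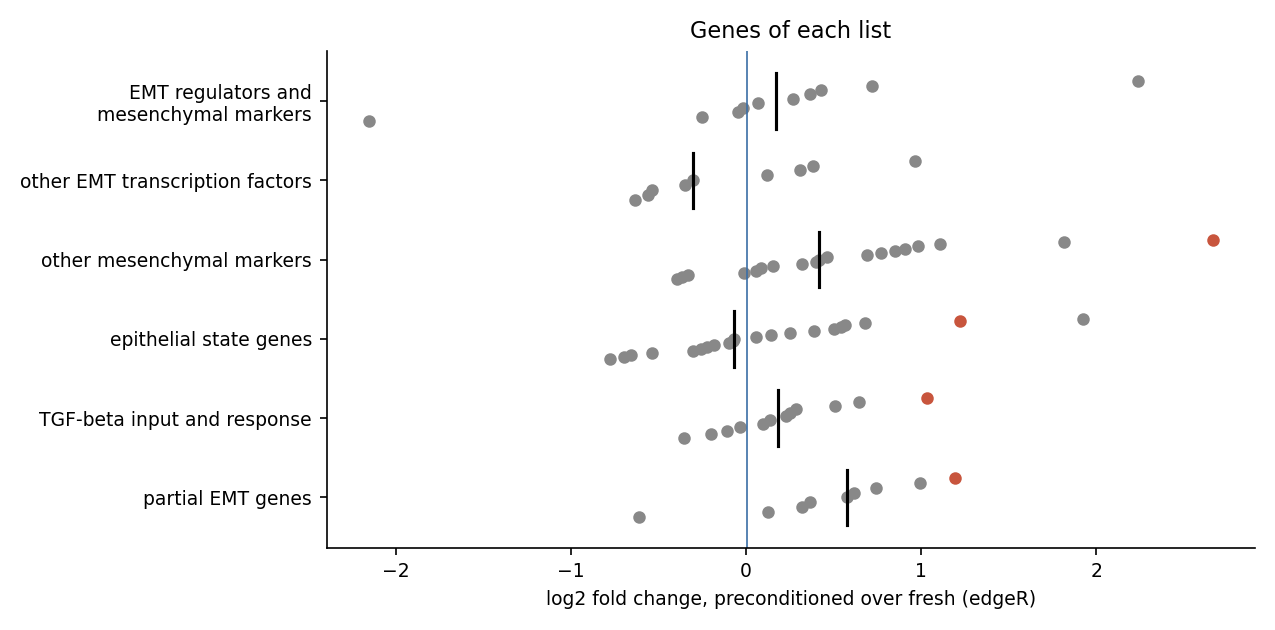
Log2 fold change of the preconditioned over the fresh group for every tested gene of each list (points, red where called by edgeR and grey where not), with the median of the list as a black line and the median of all tested genes (0.01) as a blue line. The 4 called genes, COL1A1, CLDN4, SKIL and PLAU, lie in the lists other than the 10 EMT regulators and mesenchymal markers and the other EMT transcription factors.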

How the data were processed

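Total RNA of 6 cultures of rabbit LSCs was sequenced as polyA libraries. Reads were aligned by the authors with hisat2, htseq-count gave the number of reads per gene, and the deposited counts are not normalized. The deposited FPKM values are these counts over each library's total and a length per gene. The genome build, gene annotation, strandedness of the counting and definition of the length are not given in the sources used here. Overlapping genes could therefore share reads, and no coordinates or sequences are given.

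Groups were taken from the sample titles. The counts were fitted with edgeR 4.0.16 in R 4.3.3 (filterByExpr, TMM, robust quasi-likelihood test with condition as the factor, Benjamini-Hochberg adjustment over 15029 genes), and standard errors were derived from the F statistic. Ratios of 2 genes were taken within each library with 0.5 added to each count and compared by an exact permutation test. Alternatives were DESeq2 1.42.0, other scalings and filters, fits on 5 of the 6 libraries, a block for the replicate number, limma 3.58.1 on FPKM, and calls at any fold change. The fits were also run on simulated data with 200 changed genes and the same spread for every gene. Genes with few counts were not among the changed ones, and no result of that run is used here. At this depth the spread between libraries limits the precision, and for genes with few counts, such as CDH2, counting error adds to it. The members and lists were chosen with earlier results of these data known. The text names the 10 genes, the called genes and the 3 with the largest absolute log2 fold change of each further list, the partners of the ratios and the highest and lowest markers. Other genes named, such as COL3A1, LAPTM5, PTPRC, TP63, PAX6, EPCAM, ESRP2, CD74, ITGB1, TGFBR2 and SMAD4, were chosen after their values were seen.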

Additional observations from a re-analysis of the deposited data

How the results depend on the processing

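The number of the 10 EMT genes called, 0 with edgeR, became 1 with DESeq2, with no filter on low counts, and with limma on log2(FPKM + 1) and on log2(FPKM + 0.1), in each case SNAI1 (adjusted p = 0.000378, 0.038, 0.0416 and 0.0475). In fits on 5 libraries it ranged from 0 to 1, and without preconditioned replicate 1 SNAI1 was called (adjusted p = 0.0477). The number of all genes called, 344, was 1190 with DESeq2, 565 with library size only, 30 with the replicate number as a block, 584 with limma on log2(FPKM + 0.1), 763 with no fold change cutoff, and 14 to 1546 in fits on 5 libraries. Of these, 553, 142, 13, 148 and 433 were higher in the preconditioned group, against 163 of the 344. The list of other mesenchymal markers gave 2 called genes in place of 1 with DESeq2 and with no fold change cutoff, and 0 to 3 without single libraries. The list of epithelial genes gave 2 with DESeq2, 0 with the block, and 0 to 3 without single libraries, in place of 1. The list of TGF-β genes gave 0 in place of 1 with library size only, with the block and with both limma fits, and 0 to 1 without single libraries. The list of partial EMT genes gave 0 in place of 1 with the block and with both limma fits, 3 with no fold change cutoff, and 0 to 1 without single libraries. The other EMT factors had no called gene under any alternative.

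The direction of small differences turned. The log2 fold change of SNAI2 was −0.10 with library size only and −0.095 and −0.099 with limma on log2(FPKM + 1) and log2(FPKM + 0.1), that of TWIST1 −0.038 and −0.10 in the same limma fits, and that of PRRX1 0.15 with the replicate block. Without single libraries, PRRX1 ranged from −0.36 to 0.60, TWIST1 from −0.46 to 0.78, VIM from −0.022 to 0.72 and ZEB2 from −0.45 to 0.23. SNAI1, ZEB1 and FN1 stayed positive and TGFBI and CDH2 negative under every alternative that gave a value. CDH2 did not pass the filter of at least 1 CPM in 3 libraries or the filter of the FPKM fits. The causes were not tested. The 4 ratios kept their sign under every alternative. Without single libraries, their differences ranged from −2.11 to −0.78 for CDH2 to CDH1, −2.84 to −1.74 for SNAI2 to SNAI1, 0.09 to 0.79 for VIM to CDH1 and −0.61 to −0.05 for ZEB2 to ZEB1.

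Deviations from the group means were not shared by libraries of equal number (correlations of −0.0668, −0.0726 and −0.109 across genes), so that the block rests on a number only. With it, the log2 fold change was 2.34 for SNAI1 (adjusted p = 0.10) and −1.82 for CDH2 (adjusted p = 0.19). For the ratios as same-numbered pairs, the smallest exact p that 3 pairs allow is 0.25, which all ratios but VIM to CDH1 (exact p = 0.5) reached.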
